A study of Homo sapiens with 8 samples.

Results

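The 39 interferon-stimulated genes described here were picked by name from a table of 28395 genes and found through their Entrez identifiers, so no threshold on their values chose them. Interferon-stimulated genes are genes whose transcription rises when a cell receives interferon. The samples were A-498, a human kidney cancer cell line, and the study compared control cells with cells carrying a guide against ANXA4, the gene of annexin A4, a calcium-dependent membrane-binding protein. Control 1 and control 2 carried non-targeting guides (non-targeting sgRNA-1 and sgRNA-2), and the knockout lines KO-1 and KO-2 carried ANXA4 sgRNA-1 and sgRNA-2. Each of the 4 lines gave 2 polyA RNA libraries, and all 8 came from cells seeded at equal numbers in RPMI 1640 with 10% serum and harvested, still non-confluent, after 24 hours. The labels name no interferon, infection or drug. Each guide is represented by 1 line, so the guide and the history of its line cannot be told apart, and whether a line was a clone or a pool is not given in the sources used here. The labels do not say that the 2 replicates of a line were separate cultures, so p-values measure the spread between these samples, which may be technical.

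In the textbook pathway, RNA sensors such as RIG-I and MDA5 detect viral RNA and lead to the secretion of interferon. Type I and type III interferons bind their receptors, the kinases JAK1 and TYK2 phosphorylate STAT proteins, among them STAT2, and these join IRF9 in a complex called ISGF3 that binds a promoter element, the interferon-stimulated response element (ISRE). The products then block virus entry, RNA translation and replication, and some of them, such as USP18, damp the pathway again. Many cancer cell lines transcribe part of this set without added interferon.

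RefSeq promoter windows (GRCh38.p14, 250 bases before to 50 after a gene's start) were found for 32 of the 39 genes. A match to the core letters of an ISRE on either strand (GAAA, 2 bases of any kind, then GAAA) was in a window of 22 of these 32 genes (68.8%), against 4.38% of all 27305 genes with a window. The shorter TTCNNNGAA, the letters of a STAT site called GAS, was in 10 of the 32 (31.3%) against 9.38% of all genes. Such a match is a description of the letters and does not show a bound site. The windows of 6 genes on which the results turn are printed on the strand of the gene, with every base of an ISRE match in capitals and the rest in lower case. ISG15 (chr1:1013247-1013546, plus strand), IFIT1 (chr10:89392373-89392672, plus strand) and RSAD2 (chr2:6877527-6877826, plus strand, 1 of its 2 windows) are shown because they differed between the control lines, and IFIT3 (chr10:89327747-89328046, plus strand, 1 of 2 windows) because both libraries of control 2 lay above all others. DTX3L (chr3:122564088-122564387, plus strand) and XAF1 (chr17:6755197-6755496, plus strand, 1 of 2 windows) differed in the line labelled KO-2.
ISG15: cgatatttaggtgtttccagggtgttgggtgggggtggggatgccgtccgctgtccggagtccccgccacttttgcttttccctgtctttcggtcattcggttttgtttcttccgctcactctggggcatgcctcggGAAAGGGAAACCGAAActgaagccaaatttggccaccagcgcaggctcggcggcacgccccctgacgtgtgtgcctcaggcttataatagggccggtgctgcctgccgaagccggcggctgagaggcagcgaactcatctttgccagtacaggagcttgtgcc
IFIT1: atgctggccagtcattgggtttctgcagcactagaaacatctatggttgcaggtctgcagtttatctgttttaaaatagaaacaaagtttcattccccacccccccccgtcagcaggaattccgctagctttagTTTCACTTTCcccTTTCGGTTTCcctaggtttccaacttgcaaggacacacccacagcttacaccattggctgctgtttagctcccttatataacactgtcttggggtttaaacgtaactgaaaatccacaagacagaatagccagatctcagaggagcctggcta
IFIT3: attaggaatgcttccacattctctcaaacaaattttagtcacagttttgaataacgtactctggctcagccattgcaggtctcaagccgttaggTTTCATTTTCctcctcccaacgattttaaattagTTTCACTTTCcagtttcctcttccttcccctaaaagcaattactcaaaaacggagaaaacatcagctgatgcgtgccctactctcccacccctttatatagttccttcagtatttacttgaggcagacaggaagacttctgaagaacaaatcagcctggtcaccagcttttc
RSAD2: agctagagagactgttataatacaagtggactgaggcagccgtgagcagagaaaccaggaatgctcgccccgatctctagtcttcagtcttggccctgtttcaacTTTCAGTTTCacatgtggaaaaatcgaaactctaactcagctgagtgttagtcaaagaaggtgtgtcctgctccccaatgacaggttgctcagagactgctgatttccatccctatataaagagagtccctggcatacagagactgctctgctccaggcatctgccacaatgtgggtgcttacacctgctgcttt
DTX3L: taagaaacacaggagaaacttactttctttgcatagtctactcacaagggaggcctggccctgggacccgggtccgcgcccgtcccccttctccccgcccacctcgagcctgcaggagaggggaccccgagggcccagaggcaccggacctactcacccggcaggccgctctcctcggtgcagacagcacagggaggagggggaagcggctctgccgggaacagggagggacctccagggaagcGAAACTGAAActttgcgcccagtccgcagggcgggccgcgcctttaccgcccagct
XAF1: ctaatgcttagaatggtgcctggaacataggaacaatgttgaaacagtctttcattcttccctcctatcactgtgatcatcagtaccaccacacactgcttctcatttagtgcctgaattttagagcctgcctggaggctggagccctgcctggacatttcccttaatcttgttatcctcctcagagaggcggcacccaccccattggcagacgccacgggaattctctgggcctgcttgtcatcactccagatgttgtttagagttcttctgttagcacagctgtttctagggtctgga
ISG15 holds overlapping matches in a single capital run, IFIT1 and IFIT3 hold 2 separate matches each, and XAF1 has none in the window shown. Where a gene has several windows, the window with most ISRE matches was printed. The other RSAD2 window (chr2:6865635-6865934) holds 0 matches. The match in the DTX3L window (chr3:122564332-122564341) begins 6 bases before the start of DTX3L and runs across it. Read the other way, it begins 41 bases before an annotated start of PARP9, so the windows of both genes share it.

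The libraries held 15784890 to 22631588 reads counted to genes. The deposited normalized count of ANXA4 was 2821 and 3614 in control 1, 3858 and 6773 in control 2, 236 and 234 in KO-1 and 3433 and 4142 in the line labelled KO-2. Both KO-1 libraries were far below the controls, whereas the line labelled KO-2 lay inside the control range, so the transcript level does not check that label. Of 10 markers fixed for a renal cell carcinoma line, all 10 passed the filter on low values, among them PAX8 at 2987 to 4476, whereas CA9, a hypoxia-regulated kidney cancer marker, was low at 2.07 to 24.8. None of 6 leukocyte markers (highest, 11 reads) and none of 3 endothelial markers (highest, 4 reads) passed it, CDH5 was at 0 in every library, and of 3 fibroblast markers PDGFRB alone passed, at 1.04 to 19.8. Mitochondrial transcripts took 13.8% of the reads in KO-2 replicate 2 and 9.05% in control 2 replicate 2, against 4.67% to 6.43% in the other 6 libraries.

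In all, 36 of the 39 members could be tested, meaning that they had a normalized count of at least 10 in at least 2 libraries, as did 14040 genes of the table. MX2 (0 to 4 reads), IFITM1 (3 to 11 reads) and IFITM2 (1 to 9 reads) did not reach that level and are given by their reads alone. Each library was described by how far its 36 members lay from their own mean over the 8 libraries, on the scale log2(normalized count + 1). The median of these distances was -0.25 and -0.13 in control 1, 0.02 and 0.30 in control 2, -0.16 and 0.26 in KO-1 and -0.13 and -0.06 in the line labelled KO-2, replicate 1 first. Both control 1 libraries were thus low, and the highest were the second replicates of control 2 and of KO-1. Over all tested genes the same median stayed between 0.0025 and 0.0095 in every library.

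**Figure D1:**
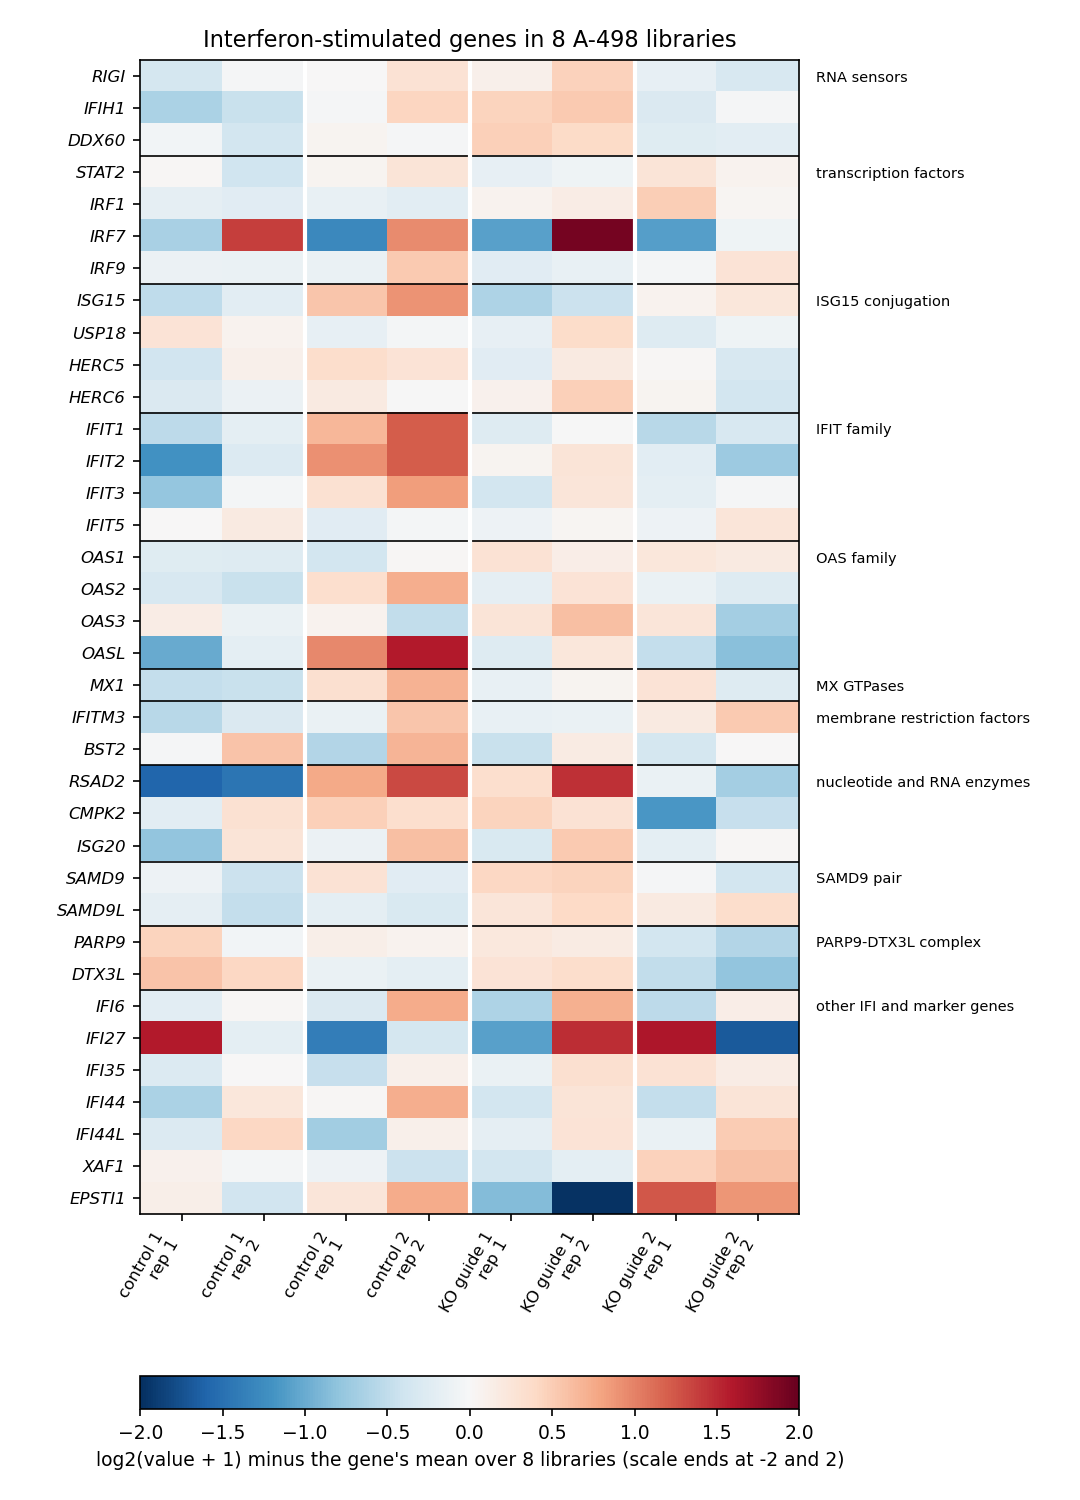
Each row is 1 of the 36 tested interferon-stimulated genes, grouped by role, and each column 1 of the 8 libraries; the colour is log2(normalized count + 1) minus the gene's mean over the libraries, with the scale ending at -2 and 2. In the rows of IFIT1, IFIT2, IFIT3 and OASL the darkest red cells are those of control 2. The rows of IRF7 and IFI27, which have few reads, swing most between replicates.

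The control lines, neither of which carried an ANXA4 guide, differed in part of the set. By limma's moderated test on log2(normalized count + 1), with Benjamini-Hochberg adjustment over all 14040 genes, 5 of the 36 members were higher in control 2 than in control 1 (adjusted p under 0.05) and 0 were lower. Of all tested genes 2.13% passed this test, 1.05% as higher and 1.08% as lower. The 5 were ISG15, IFIT1, IFIT2, OASL and RSAD2. Over the 36 members the median log2 difference was 0.32, with 25 above 0 and 11 below, against a median of -0.0011 over all tested genes. The member median was 0.11 within replicate 1 and 0.29 within replicate 2, and it was 0.20 without control 1 replicate 1 and 0.21 without control 2 replicate 2. In bulk RNA, more cells expressing a gene and more of its RNA per cell cannot be told apart.

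ISG15 encodes a ubiquitin-like protein that is attached to other proteins and is also secreted. Its normalized count was 165 and 204 in control 1, 345 and 437 in control 2, 153 and 175 in KO-1 and 248 and 276 in the line labelled KO-2. Both control 2 libraries were above the 6 others and did not overlap any of them (control 2 minus control 1: log2 difference 1.08 ± 0.20 (SE), adjusted p = 0.0346). HERC5, the main ligase that attaches ISG15, had 111 and 156 in control 1, 186 and 176 in control 2, 124 and 165 in KO-1 and 148 and 116 in the line labelled KO-2, with control 2 again highest but only just above KO-1 replicate 2, and its difference of 0.45 did not pass. HERC6, a related ligase, ranged over 165 to 297 in the 8 libraries, and USP18, which removes ISG15 and restrains the receptor, had 84.8 to 131. Reads of USP18 can also come from its near-identical copy USP41, so its level is uncertain.

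The IFIT proteins bind foreign RNA and block its translation. IFIT1, which binds RNA lacking host cap methylation, had 106 and 134 in control 1, 243 and 353 in control 2, 128 and 151 in KO-1 and 103 and 122 in the line labelled KO-2. Control 2 was above all other libraries, and the difference from control 1 passed (log2 difference 1.29 ± 0.24 (SE), adjusted p = 0.0372). IFIT2 had 93.8 and 179.9 in control 1, 412 and 504 in control 2, 225 and 260.4 in KO-1 and 187 and 132 in the line labelled KO-2, the same order of control lines with a wider gap (log2 difference 1.80 ± 0.31 (SE), adjusted p = 0.0285). IFIT3, which stabilizes IFIT1 and had the highest mean count of the family, had 264 and 439.9 in control 1, 560.1 and 802 in control 2, 352 and 535 in KO-1 and 395 and 443 in the line labelled KO-2. Its control 2 libraries were also above the 6 others, but the 2 libraries of control 1 were far apart and the difference of 0.97 ± 0.29 (SE) did not pass (adjusted p = 0.137). IFIT5 went the other way, at 401 and 451 in control 1 and 337 and 386 in control 2 (-0.24 ± 0.17, not called), the 1 member of this family, whose genes are neighbours on chromosome 10, with a negative sign. The annotated gene LIPA overlaps all 4, and whether the counting used strand is not given in the sources used here.

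The OAS enzymes sense double-stranded RNA and make a short RNA messenger, and OASL, their relative without that activity, acts on RIG-I. OASL had 119.5 and 210.1 in control 1, 471 and 729.6 in control 2, 201 and 283 in KO-1 and 173 and 135 in the line labelled KO-2. Control 2 was above every other library (log2 difference 1.88 ± 0.32 (SE), adjusted p = 0.0285). OAS2 had 121 and 111 in control 1, 192 and 250.4 in control 2, 133 and 183 in KO-1 and 139 and 127 in the line labelled KO-2, with control 1 lowest and control 2 highest without overlap, but its difference of 0.91 ± 0.22 did not pass. OAS3, which had the highest mean count of the family, ranged over 768 to 932 in control 1 and 598 to 889 in control 2, which overlapped, as did OAS1 at 226 to 228 and 208 to 274. MX1, a dynamin-like GTPase that traps viral nucleocapsids, had 312 and 316 in control 1, 542 and 700.2 in control 2, 388 and 448 in KO-1 and 523 and 361 in the line labelled KO-2, again with control 1 lowest and control 2 highest in every library, and just missed the threshold (log2 difference 0.97 ± 0.21 (SE), adjusted p = 0.0549).

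RSAD2 encodes viperin, an enzyme that makes a chain-terminating nucleotide. Its counts were low, at 2.76 and 3.12 in control 1, 18.1 and 27.2 in control 2, 13.3 and 30.1 in KO-1 and 9.31 and 6.04 in the line labelled KO-2. The reads behind them were 3 and 3 in control 1 and 21 and 24 in control 2, a depth-adjusted ratio of 7.52 (95% exact interval 3.20 to 21.6, counting error only). The test called it higher in control 2 (log2 difference 2.56 ± 0.51 (SE), adjusted p = 0.0435). The call was lost with a pseudocount of 10 (log2 difference 1.32), with no filter on low values, with equal totals and by edgeR, and it held in 2 of the 8 fits that left out a library. KO-1, at 17 and 29 reads, overlapped control 2. CMPK2, the mitochondrial nucleotide kinase whose gene overlaps RSAD2 head to head, had 23.0 and 33.3 in control 1 and 37.9 and 34.0 in control 2, a difference of 0.36 ± 0.36 that did not pass.

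For 8 members both control 2 libraries stood above the 6 others, namely ISG15, HERC5, IFIT1, IFIT2, IFIT3, OAS2, OASL and MX1. That was 22.2% of the 36, against 3.91% of all tested genes, and 0 members had both control 2 libraries below the 6 others (5.1% of all tested genes). Of these 8, 5 have a RefSeq window, and all 5 (ISG15, HERC5, IFIT1, IFIT3 and MX1) hold the ISRE letters, as do 17 of the 27 other members with a window. Both control 1 libraries were below the 6 others for IFIH1, OAS2, MX1, IFITM3 and RSAD2, 13.9% of members against 8.7% of genes.

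**Figure D2:**
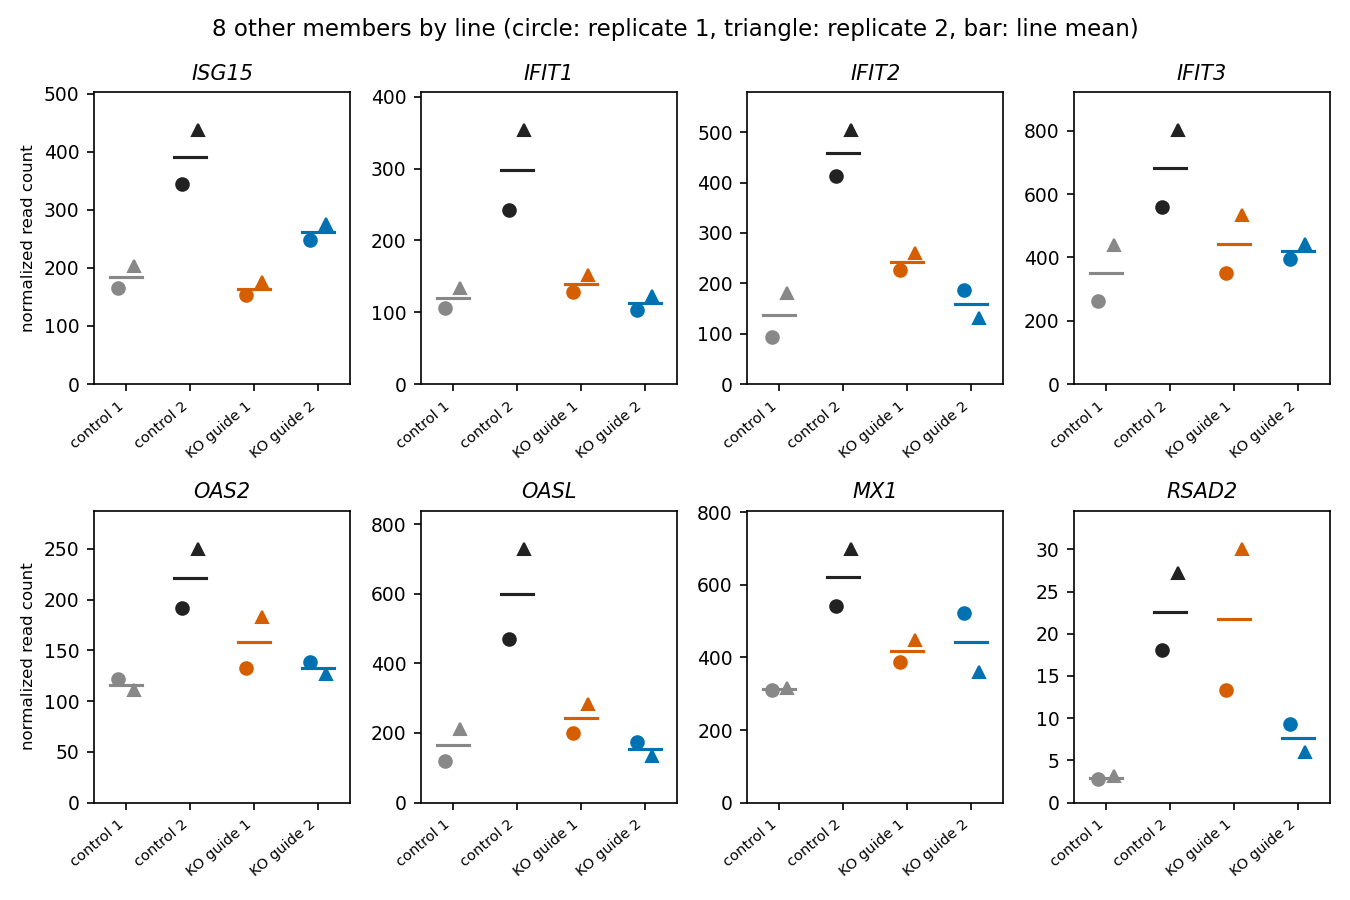
Normalized counts (vertical axis, starting at 0, linear) of ISG15, IFIT1, IFIT2, IFIT3, OAS2, OASL, MX1 and RSAD2 in the 4 lines; circles are replicate 1, triangles replicate 2 and bars the line means. In 7 of the 8 panels both control 2 points lie above all other points; in RSAD2 KO-1 replicate 2 is higher.

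Same-numbered replicates deviated together, so the control lines were also compared within replicate number. The log2 difference, control 2 minus control 1, was 1.06 in replicate 1 and 1.10 in replicate 2 for ISG15, 1.19 and 1.39 for IFIT1, 2.12 and 1.48 for IFIT2, 1.97 and 1.79 for OASL and 2.34 and 2.77 for RSAD2. All 5 called genes thus differed in the same direction in both replicates, though they were called on these same values. So did 29 of the 36 members, a share that was not counted over all genes. Between ANXA4-guide and control libraries, where limma called no member, 29 of the 36 also kept their direction. A fit that kept the replicate number as a block held the 5 calls and added 7, giving 11 higher and 1 lower (12.5% of all genes passed this test). IFIH1, IFIT3, OAS2, MX1, IFITM3 and IFI44 were added as higher and DTX3L as lower, with adjusted p from 0.00163 to 0.013. Without the block, calls depended on single libraries: 0 members passed without control 1 replicate 1, without control 2 replicate 2 or without either KO-1 library, 2 without control 1 replicate 2, 1 without control 2 replicate 1 and 7 without either library of the line labelled KO-2. Over all genes the 299 calls of this comparison moved likewise, to 43 without control 1 replicate 1, 49 without control 1 replicate 2, 88 without control 2 replicate 1, 56 without control 2 replicate 2, 105 and 104 without a KO-1 library and 409 and 410 without one of the line labelled KO-2. Leaving out a knockout library does not touch the control values and changes the shared estimate of spread and its degrees of freedom.

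Between the arms of the study, 4 ANXA4-guide libraries against 4 controls, no member passed the test. With the line kept as a random block (correlation between libraries of a line 0.33), limma called 0 of 36, against 0.235% of all genes (0.128% higher and 0.107% lower), and 3 members had an unadjusted p under 0.05. With the replicate block it also called 0 (0.264% of all genes), edgeR's quasi-likelihood test on the recovered reads called 1 (10.5% of all genes) and DESeq2 called 3 (12.9% of all genes). The member log2 differences had a median of -0.0101, 18 above and 18 below 0, against 0.0007 over all genes. The difference closest to the threshold was that of SAMD9L, a negative regulator of translation and growth. Its counts were 341 and 279 in control 1, 338 and 313 in control 2, 458 and 509 in KO-1 and 437 and 493 in the line labelled KO-2. All 4 ANXA4-guide libraries were above all 4 controls (log2 difference 0.58 ± 0.16 (SE), adjusted p = 0.181 by limma). SAMD9L was the 1 call of edgeR, which does not keep the line as a block. Its adjusted p was 0.0168 by edgeR's quasi-likelihood test, 0.00227 by DESeq2 and 0.282 by limma with the replicate block. For 3 of the 36 members, IRF1, OAS1 and SAMD9L, the ANXA4-guide libraries were all above the controls (8.33%, against 5.11% of all genes), and for 0 they were all below (5.51% of all genes).

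IRF1, a transcription factor induced most strongly by interferon gamma, had 566 and 546 in control 1, 577 and 549 in control 2, 673 and 706 in KO-1 and 901 and 659 in the line labelled KO-2, and its arms differed by 0.38 ± 0.16 (adjusted p = 0.402). OAS1 had 228 and 226 in control 1, 208 and 274 in control 2, 330.4 and 297 in KO-1 and 315 and 304 in the line labelled KO-2, with a difference of 0.42 ± 0.17 (adjusted p = 0.379). For both genes the groups did not overlap. Neither was called by limma with the line as a block, or by edgeR or DESeq2, which do not keep it. The adjusted p by edgeR was 0.0651 for IRF1 and 0.0694 for OAS1, and by DESeq2 0.0542 and 0.0765. OASL and IFIT1, the other 2 calls of DESeq2, both as lower, had log2 differences of -0.67 and -0.57. For these 2 genes the control arm was split, since control 2 was high and control 1 lay within or close to the ANXA4-guide libraries.

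**Figure D3:**
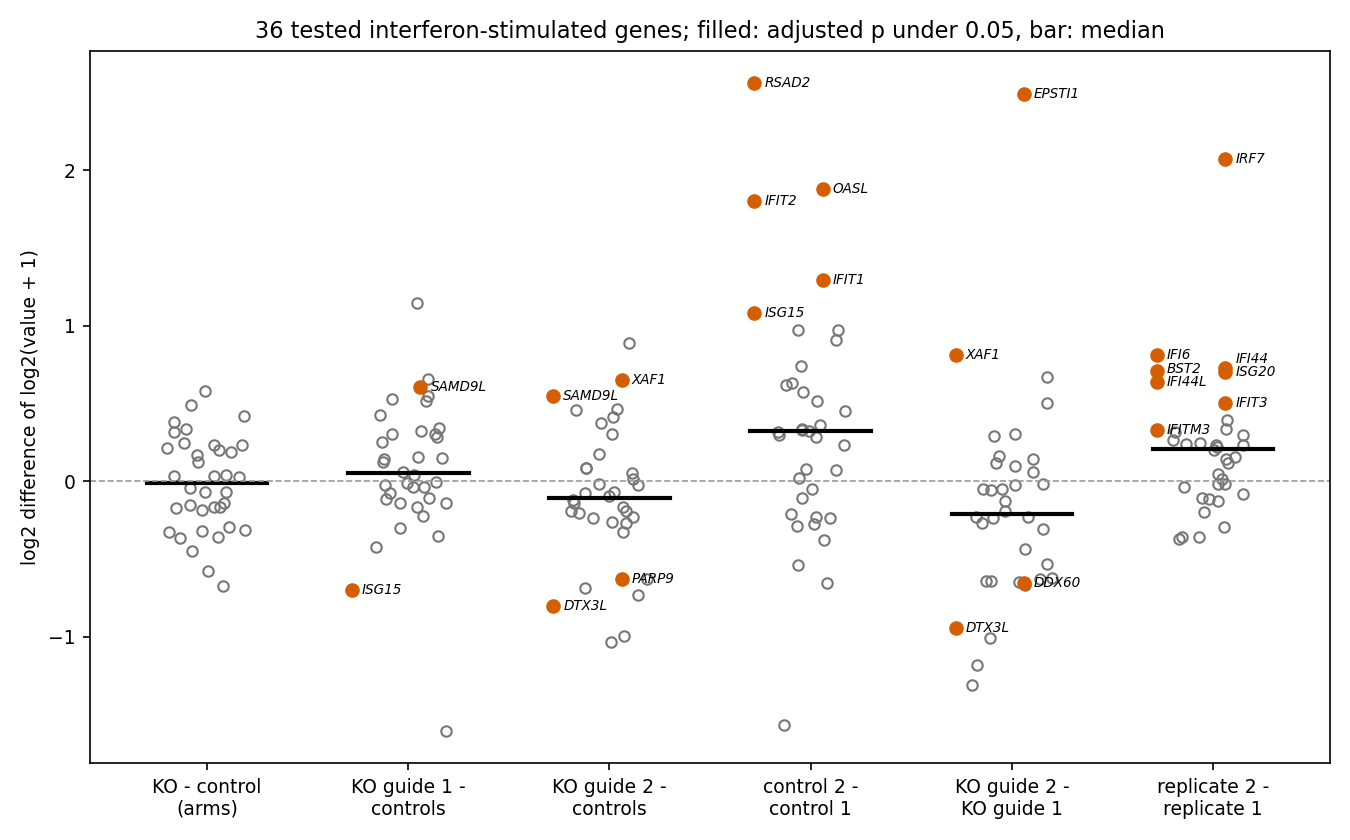
Each point is 1 of the 36 tested members; the vertical axis is the log2 difference of normalized count + 1 in the comparison named on the horizontal axis, filled points passed at adjusted p under 0.05 and bars are medians (horizontal scatter carries no value). The arm comparison has no filled point, control 2 minus control 1 has 5, all above 0, and replicate 2 minus replicate 1 has 8, all above 0.

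KO-1, the line with little ANXA4 transcript, was compared with the mean of both control lines. SAMD9L was higher (log2 difference 0.61 ± 0.14 (SE), adjusted p = 0.0403) and ISG15 was lower (log2 difference -0.70 ± 0.17 (SE), adjusted p = 0.0439), 2 of 36 members, where 7.01% of all genes passed, 3.82% as higher and 3.18% as lower. The ISG15 value rests on control 2: KO-1 had 153 and 175, close to the 165 and 204 of control 1 and far from the 345 and 437 of control 2. The member median was 0.05, against -0.0009 over all genes, and its sign depended on which library was left out: it was 0.19 without KO-1 replicate 1, -0.13 without KO-1 replicate 2, -0.0101 without control 1 replicate 1 and -0.0612 without control 2 replicate 1. It was -0.03 within replicate 1 and 0.11 within replicate 2.

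The RNA sensors were all highest in KO-1 as line means. IFIH1, which encodes MDA5, the sensor of long double-stranded RNA, had 187 and 211 in control 1, 285 and 387 in control 2, 395 and 416 in KO-1 and 236 and 285 in the line labelled KO-2, and KO-1 was above all other libraries. The difference from the controls missed the threshold (log2 difference 0.66 ± 0.17 (SE), adjusted p = 0.0538). DDX60, a helicase linked to RIG-I signalling and the sensor with the highest mean count, had 375 and 301 in control 1, 404 and 384 in control 2, 539 and 505 in KO-1 and 327 and 334 in the line labelled KO-2, also with KO-1 above all others (log2 difference 0.52 ± 0.14 (SE), adjusted p = 0.0581). RIGI, which encodes the sensor of 5′-triphosphate RNA, had 243 and 306 in control 1, 312 and 376 in control 2, 331 and 428 in KO-1 and 275 and 246 in the line labelled KO-2, and the lines overlapped. SAMD9, the neighbour and relative of SAMD9L on chromosome 7, had 443 and 352 in control 1, 578 and 407 in control 2, 635 and 646 in KO-1 and 468 and 367 in the line labelled KO-2, where KO-1 but not the line labelled KO-2 was above the controls (log2 difference 0.55 ± 0.18 (SE), adjusted p = 0.112).

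IFIH1, DDX60, OAS3 and SAMD9 were the 4 members with both KO-1 libraries above the 6 others (11.1%, against 10.3% of all genes), and IRF9 and EPSTI1 had both below (5.56%, against 9.56%). These shares were near those of all genes. With the replicate block IFIH1, DDX60, OAS1 and SAMD9 were added as higher and EPSTI1 as lower, with adjusted p from 0.00299 to 0.0442, for 7 calls where 24.4% of all genes passed. Without the block, 0 members passed after leaving out either control 1 library or either KO-1 library, 1 after leaving out either control 2 library and 3 after leaving out either library of the line labelled KO-2. In the same fits 148 to 1324 of all genes passed, against 984 with every library.

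The line labelled KO-2 differed from the controls in 4 of 36 members, 2 higher and 2 lower, where 11.2% of all genes passed, 4.54% as higher and 6.67% as lower. The lower ones were DTX3L and PARP9, an E3 ubiquitin ligase and its ADP-ribosyltransferase partner, which act as a complex in interferon signalling and DNA repair. DTX3L had 1219 and 1093 in control 1, 752 and 717 in control 2, 990.3 and 1049 in KO-1 and 585 and 477 in the line labelled KO-2, so that the line labelled KO-2 was lowest, control 2 next, and KO-1 lay between the control lines (log2 difference -0.80 ± 0.13 (SE), adjusted p = 0.00644). PARP9 had 367 and 259 in control 1, 291 and 282 in control 2, 310.0 and 302 in KO-1 and 207 and 179 in the line labelled KO-2, with the line labelled KO-2 below all others (log2 difference -0.63 ± 0.17 (SE), adjusted p = 0.0483). The annotated genes overlap at their starts, so that reads near there may be counted to either. XAF1, a proapoptotic interferon target, was higher at 291 and 264 in control 1, 253 and 203 in control 2, 211 and 238 in KO-1 and 376 and 410.4 in the line labelled KO-2, without overlap (log2 difference 0.65 ± 0.15 (SE), adjusted p = 0.0282). SAMD9L was higher, as in KO-1 (log2 difference 0.55 ± 0.14 (SE), adjusted p = 0.0406); both comparisons use the same controls.

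The member median was -0.11, against 0.0096 over all genes, with 13 members above 0 and 23 below. It was 0.04 within replicate 1 and -0.28 within replicate 2, and -0.0117 without control 2 replicate 2. CMPK2, PARP9 and DTX3L had both libraries of this line below the 6 others (8.33%, against 10.9% of all genes), and XAF1 and EPSTI1 had both above (5.56%, against 8.65%). With the replicate block 7 calls were added, IRF1, OAS1 and IFITM3 as higher and IFIT1, IFIT2, OASL and CMPK2 as lower (adjusted p from 0.00304 to 0.04996), for 11 where 27.4% of all genes passed. Scaling the libraries to equal totals changed the 2 higher and 2 lower calls to 1 higher and 3 lower. The calls of this comparison without the block changed with the library left out. DTX3L alone kept its call in each of these 8 fits. PARP9 and XAF1 lost theirs in most of them, and SAMD9L lost its call in all of them. The log2 difference ran from -0.95 to -0.65 for DTX3L and from -0.75 to -0.50 for PARP9. For XAF1 it ran from 0.57 to 0.73 and for SAMD9L from 0.47 to 0.64. PARP9 also lost its call with a pseudocount of 10, with no filter, with equal totals and by edgeR.

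Compared directly, the lines with ANXA4 guides differed in 4 of 36 members, 2 in each direction, where 6.94% of all genes passed, 2.41% as higher and 4.53% as lower in the line labelled KO-2. EPSTI1, an epithelial-stromal interaction gene used as an interferon marker, had few counts, at 16.5 and 11.4 in control 1, 18.1 and 26.1 in control 2, 7.83 and 3.11 in KO-1 and 37.2 and 29.0 in the line labelled KO-2. The 2 libraries of KO-1 were lowest and those of the line labelled KO-2 highest (log2 difference 2.49 ± 0.47 (SE), adjusted p = 0.0207), on 13 and 60 reads in all, a ratio of 5.76 (95% exact interval 3.13 to 11.4, counting error only). XAF1 was higher in the line labelled KO-2 (log2 difference 0.81 ± 0.18 (SE), adjusted p = 0.0323). DTX3L (log2 difference -0.95 ± 0.15 (SE), adjusted p = 0.0102) and DDX60 (log2 difference -0.66 ± 0.16 (SE), adjusted p = 0.0444) were lower there.

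The member median was -0.21, with 25 of 36 below 0, against -0.0054 over all genes, but this median depended on replicate: it was -0.0061 within replicate 1 and -0.47 within replicate 2, and it was 0.12 when KO-1 replicate 2 was left out. The block added 8 calls, ISG15 and IFITM3 as higher and RIGI, IFIH1, OAS3, CMPK2, SAMD9 and PARP9 as lower (adjusted p from 0.00633 to 0.048), for 12 where 24.5% of all genes passed. Of the RNA sensors, all 3 were then lower in the line labelled KO-2 than in KO-1. Equal totals changed the split from 2 higher and 2 lower to 2 higher and 1 lower. Without the block, the calls changed with the library left out. In those fits the log2 difference ran from 1.94 to 3.04 for EPSTI1 and from 0.72 to 0.90 for XAF1. For DTX3L it ran from -1.09 to -0.80 and for DDX60 from -0.70 to -0.61.

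**Figure D4:**
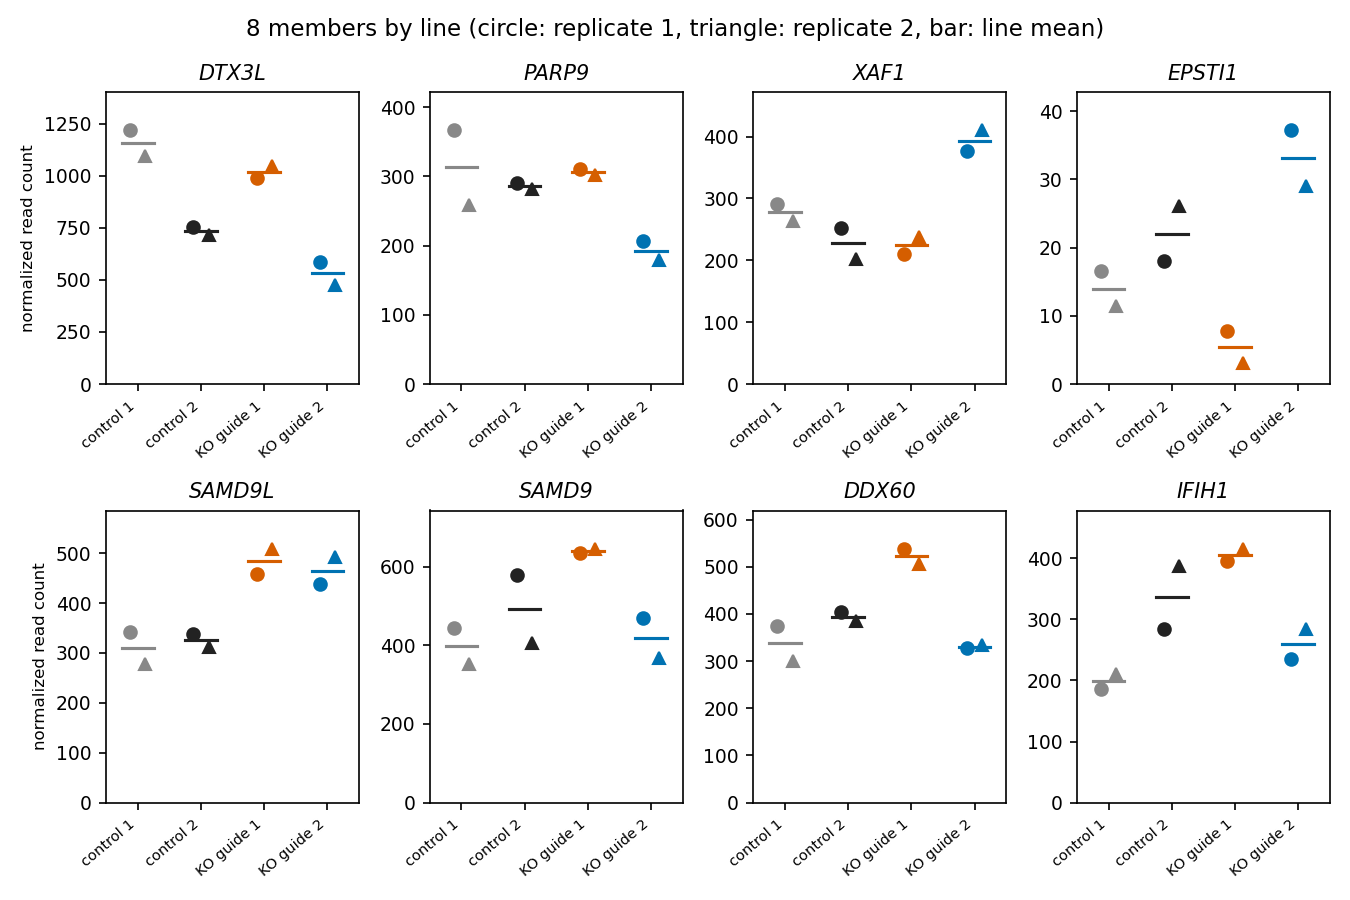
Normalized counts (vertical axis, starting at 0, linear) of DTX3L, PARP9, XAF1, EPSTI1, SAMD9L, SAMD9, DDX60 and IFIH1 in the 4 lines; circles are replicate 1, triangles replicate 2 and bars the line means. DTX3L and PARP9 are lowest in KO guide 2, SAMD9L is high with both ANXA4 guides, and SAMD9, DDX60 and IFIH1 are highest in KO guide 1.

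Part of the set differed by the replicate number, which the labels give without saying what it marks. In a model with the line and the replicate number, 8 of 36 members were higher in replicate 2 and 0 were lower, where 17.6% of all genes passed, 8.97% as higher and 8.62% as lower. In all 4 lines 12 of the 36 members, or 33.3%, were higher in replicate 2 (20.2% of all genes), and PARP9 was the 1 member lower in all 4 (2.78%, against 19.3%). Both the 8 and the 12 include IRF7, which passed the filter on low values through replicate 2 libraries alone and is not counted as support. The member median was 0.21, against 0.0015 over all genes. By line, 21 of the 36 were higher in replicate 2 in control 1, 25 in control 2, 31 in KO-1 and 18 in the line labelled KO-2, where the median was -0.0096.

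IRF7, the factor that amplifies interferon alpha transcription, had very few reads and the widest difference: 5, 3, 4 and 3 reads in the first replicates of control 1, control 2, KO-1 and the line labelled KO-2, and 21, 14, 31 and 6 in the second (log2 difference 2.07 ± 0.40 (SE), adjusted p = 0.00617). It passed the filter on low values through replicate 2 libraries alone, so it had to differ, and its call is not counted as support; the other 7 calls do not depend on it. IFI44 and IFI44L are neighbours on chromosome 1 that encode related cytoplasmic proteins. IFI44 had 284 and 513 in control 1, 447 and 725 in control 2, 341 and 524 in KO-1 and 316 and 528 in the line labelled KO-2, higher in replicate 2 by 0.62 to 0.85 on the log2 scale in each line (log2 difference 0.73 ± 0.09 (SE), adjusted p = 0.000702). IFI44L had 201 and 323 in control 1, 149 and 259 in control 2, 214 and 293 in KO-1 and 222 and 344 in the line labelled KO-2, higher by 0.45 to 0.80 (log2 difference 0.64 ± 0.11 (SE), adjusted p = 0.00338). IFI6, a small mitochondrial and endoplasmic reticulum protein, had 161 and 189 in control 1, 152 and 312 in control 2, 121 and 305 in KO-1 and 129 and 204 in the line labelled KO-2 (log2 difference 0.81 ± 0.16 (SE), adjusted p = 0.00682).

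BST2, or tetherin, holds budding virus at the cell surface. It had 161 and 243 in control 1, 108 and 262 in control 2, 119.8 and 184 in KO-1 and 128 and 165 in the line labelled KO-2, and replicate 2 was higher in each line (log2 difference 0.71 ± 0.15 (SE), adjusted p = 0.00865). ISG20, an RNA exonuclease and the member with the highest mean count of its group, had 35.9 and 74.9 in control 1, 57.6 and 96.3 in control 2, 50.9 and 90.2 in KO-1 and 54.8 and 64.0 in the line labelled KO-2, with the narrowest gap in the line labelled KO-2 (log2 difference 0.70 ± 0.18 (SE), adjusted p = 0.0197). IFIT3 differed by 0.51 ± 0.11 (SE, adjusted p = 0.00862) and IFITM3, which blocks virus entry at endosomes, by 0.33 ± 0.10 (adjusted p = 0.042). IFITM3 had 888 and 1065 in control 1, 1184 and 1919 in control 2, 1173 and 1186 in KO-1 and 1478 and 1882 in the line labelled KO-2; IFITM2 and IFITM3 are near-identical in sequence, so how reads fell between them is uncertain. Replicate 2 held the 2 libraries with the highest mitochondrial share, 9.05% and 13.8%, and the part of that in the result was not tested. Without control 2 replicate 2, 2 members passed, and without control 2 replicate 1, 3; without either control 1 library 6 passed, and without any 1 of the other 4 libraries 9 (7 higher and 2 lower where it was a KO-1 library); 705 to 2306 of all genes passed in these fits, against 2470. Equal totals gave 7 higher and 1 lower.

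**Figure D5:**
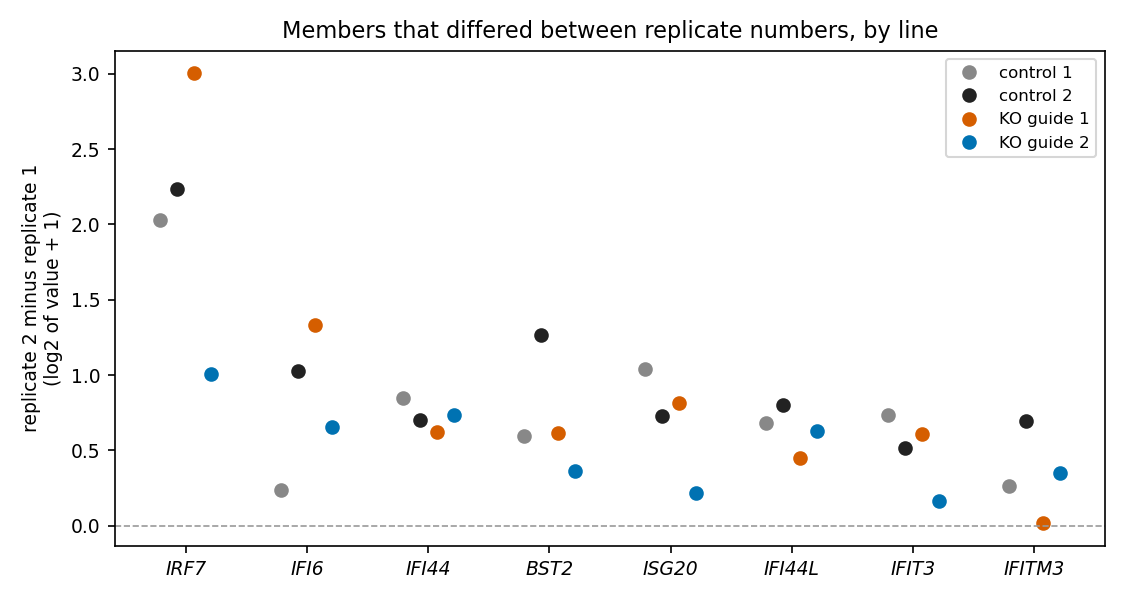
The vertical axis is replicate 2 minus replicate 1 in log2(normalized count + 1) for the 8 members that passed, each point being 1 line in the colour of the key. All 32 points are above 0, with KO guide 1 for IFITM3 nearest to it. The 8 were chosen by the test on these same values, and IRF7 passed the filter on low values through replicate 2 libraries alone.

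By limma, with lines and arms compared without the replicate block, 17 of the tested members passed in none of the 6 comparisons. They were RIGI, IFIH1, STAT2, IRF1, IRF9, USP18, HERC5, HERC6, IFIT5, OAS1, OAS2, OAS3, MX1, CMPK2, SAMD9, IFI27 and IFI35. Of these, RIGI, IFIH1, IRF1, OAS1, OAS2, OAS3, MX1, CMPK2 and SAMD9 passed in at least 1 comparison of lines with the replicate block. In those comparisons 12.5% to 27.4% of all genes passed with the block. STAT2 and IRF9, both parts of ISGF3, ranged over 342 to 539 and 202 to 339.9, with control and ANXA4-guide libraries overlapping. IFI35, the member with the highest mean count among the remaining interferon-induced proteins, ranged over 404 to 603 in the controls and 512 to 701 in the ANXA4-guide libraries, again overlapping. IFI27 had 1 to 22 reads and was high in control 1 replicate 1, KO-1 replicate 2 and KO-2 replicate 1, which follows neither line nor replicate number. OAS3 had 932 and 768 in control 1, 889 and 598 in control 2, 1003 and 1275 in KO-1 and 995 and 523 in the line labelled KO-2, with replicates far apart in the line labelled KO-2.

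Upstream of the members, interferon transcripts were scarce. Of 21 interferon genes, 13 were at 0 in all libraries, IFNB1 had 0 to 1 reads in each, and IFNE alone passed the filter on low values, at 12.9 and 12.5 in control 1, 6.02 and 32.9 in control 2, 14.9 and 15.6 in KO-1 and 8.27 and 53.1 in the line labelled KO-2. IFNG was at 0 in all libraries. A count of 0 allows up to 3 reads a library, so such values do not show that no interferon was made. The receptors were present: IFNAR1 had 929.8 to 1461 and IFNAR2 595 to 984, and 0 of the 5 tested receptor genes of 6 passed in any comparison of lines or arms. Of the 5 genes of the JAK-STAT core, JAK1 alone passed. Its counts were 3568 and 3802 in control 1, 4519 and 4386 in control 2, 5666 and 5839 in KO-1 and 10950.2 and 7850.1 in the line labelled KO-2, highest in both libraries of the line labelled KO-2 (against controls log2 difference 1.19 ± 0.14 (SE), adjusted p = 0.00224; against KO-1 log2 difference 0.69 ± 0.17 (SE), adjusted p = 0.0436). STAT3 ranged over 2985 to 4746 and was not called.

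Other lists of pathway genes were counted in the same fits. None of their genes passed in the arm comparison by limma with the line as a random block. There edgeR, which does not keep the line as a block, called some as higher and 0 as lower (10.5% of all genes passed). These were 2 nucleic acid sensing genes, 2 of the interferon gamma response, 3 type I response genes outside the 39 and 1 feedback regulator. The calls that follow are by limma. Of 13 tested nucleic acid sensing genes, TLR3, the endosomal sensor of double-stranded RNA, and IRF5, an interferon regulatory factor, were higher in KO-1 and in the line labelled KO-2 against the same controls, and IRF5 was also higher in control 2 than in control 1. Among 13 tested genes of the interferon gamma response, 2 were higher in KO-1, 3 in the line labelled KO-2 and 1 in control 2 over control 1, where 3.82%, 4.54% and 1.05% of all genes were higher. That 1 was GBP4, a guanylate-binding protein, at 0.919 and 0 in control 1, 22.4 and 19.3 in control 2, 25.8 and 38.4 in KO-1 and 32.1 and 16.9 in the line labelled KO-2, nearly absent from control 1 alone. These 3 genes were picked after their values were seen. Among 24 tested type I response genes outside the 39, 5 were higher in KO-1 and 2 were higher and 1 lower in the line labelled KO-2 (3.82% of all genes higher in the former, 4.54% higher and 6.67% lower in the latter). Between the control lines 0 of these 24 were higher in control 2 and 1 was lower, with a median of -0.0018 and 12 on each side of 0, beside the median of 0.32 over the members; the difference between the lists was not tested. The lists of 10 feedback regulators and 3 enzymes of ISG15 conjugation held 1 call, higher in the line labelled KO-2, and 0 calls in these comparisons.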

How the data were processed

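Messenger RNA was measured by polyA sequencing in 8 libraries of A-498 cells, 2 for each of 4 lines. Per the submitters' processing notes, the authors used fastp 0.23.2, HISAT2 2.2.1, featureCounts 2.0.1 and DESeq2 2.11.40.8 with hg38 (GRCh38); the annotation and any use of strand are not given in the sources used here. The deposited values are a signal, normalized read counts per gene that the authors divided by 1 size factor per library; every value came out as a whole number of reads (100% within a relative tolerance of 1e-06), which gave totals of 15784890 to 22631588 reads and the reads printed for low genes.

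Entrez identifiers were matched to RefSeq symbols for 27745 of 28395 genes. The 14040 genes that reached a value of 10 in 2 or more libraries were tested on log2(value + 1) with limma 3.58.1 in R 4.3.3 (trended moderated test, Benjamini-Hochberg adjustment over all tested genes, threshold 0.05). Fold changes on this scale understate the change of low genes. The arms were compared with the line as a random block, the lines with 1 mean each and a shared spread, and the replicates with line as a term. Alternatives were pseudocounts of 0.1 and 10, no filter, a filter at 50, TMM scaling, equal totals, edgeR 4.0.16 and DESeq2 1.42.0 on the recovered reads, the replicate block, other treatments of the line in the arm comparison, and leaving out each library. Scripts were tested on simulated data. In all 6 pairs of lines the replicate differences over all tested genes correlated (r from 0.285 to 0.501, above the limit of 0.1). The labels' replicate numbers were therefore taken to pair the samples in the within-replicate differences and in the replicate block. The tests of lines and arms given first did not use this pairing. With the block, more members and more of all genes passed in each comparison of lines. Replicates of a line correlated at 0.978 to 0.987 and differed by more than counting noise, so none was taken for a library deposited more than once.

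The members, lists and comparisons were chosen with earlier results of these data known. Full statistics were given to members called in any comparison, at most 6 per comparison by size of difference; the member with the highest mean count in each role group was always named; the others were to be given by values, ranges or counts. Beyond this rule, test values of some members that were not called (such as IFIH1, SAMD9 and OAS1) are given, chosen after their values were seen. Intervals and reads cover counting error only. Some values of other pathway genes are not reported here.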

Additional observations from a re-analysis of the deposited data

Results flagged for a closer look

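In 2 of 72 groups of 4 libraries (the control and the ANXA4-guide libraries of each of the 36 tested members), a single library stood apart by Dixon's criterion (gap over range above 0.829); chance gives about 1 in 20, or 3.6 of 72. For IRF7 the ANXA4-guide libraries had normalized counts of 3.10, 3.13 and 7.24, and KO-1 replicate 2 had 32.2, with a gap of 0.858 of the range. For IRF9 the control libraries had 216.0, 216.3 and 217.0, and control 2 replicate 2 had 339.9, with a gap of 0.992 of the range.

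For 4 members the effects of the ANXA4-guide lines against the same controls differed, by the test of the difference itself (limma, the line labelled KO-2 minus KO-1). The log2 difference was 2.49 for EPSTI1 (adjusted p = 0.0207), 0.81 for XAF1 (adjusted p = 0.0323), -0.95 for DTX3L (adjusted p = 0.0102) and -0.66 for DDX60 (adjusted p = 0.0444). The libraries of the ANXA4-guide lines did not overlap for any of the 4, though the 4 were called on these same values. The share of all genes without such overlap was not counted. DDX60 was called in 0 of the 8 fits that left out a library, EPSTI1 in 5, DTX3L in 6 and XAF1 in 2.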

How the results depend on the processing

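The 23 differences of single genes given with full statistics kept their sign in all 379 refits, and 116 of these refits lost the call: 98 of the 184 that left out a library and 18 of the 195 others. In the arm comparison, where limma called 0 members, edgeR called 1, DESeq2 3 and a separate mean per line without the random block 1; leaving out a library gave 0 in all 8 fits. Over all genes these were 33 by limma, 1474, 1774 and 1474. For KO-1 against the controls (2 calls) the count was 0 with no filter on low values, 4 by edgeR, 4 by DESeq2, 7 with the replicate block and 0 to 3 without 1 library (all genes 984, then 732, 1063, 1440, 3432 and 148 to 1324). For the line labelled KO-2 against the controls (4 calls) it was 2 with no filter, 7 by DESeq2, 11 with the replicate block and 1 to 4 without 1 library (all genes 1573, then 1361, 1837, 3851 and 814 to 1360). For control 2 against control 1 (5 calls) it was 3 with no filter, 10 by DESeq2, 12 with the replicate block and 0 to 7 without 1 library (all genes 299, then 183, 655, 1752 and 43 to 410). Between the ANXA4-guide lines (4 calls) it was 12 with the replicate block and 0 to 3 without 1 library (all genes 975, then 3442 and 87 to 998), and between replicates (8 calls) 2 to 9 without 1 library (all genes 2470, then 705 to 2306). The replicate block changed no call of the arm comparison and lost none of those of the line comparisons. The cause of the other changes was not tested, and the leave-one-out fits also had fewer samples. Equal totals shifted the median of all genes in the replicate comparison by -0.07 on the log2 scale. A line has 2 libraries, and leaving out 1 leaves a lone library that is assumed to vary like the others. RSAD2, IRF7, EPSTI1, IFI27, MX2, IFITM1 and IFITM2 have few reads, so differences in them are limited by depth.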

Other observations

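Part of the list of other genes that interferon gamma induces moved with the replicate number. Of its 13 tested genes, 6 had a difference below 0, none of them called. The 7 others were called higher in replicate 2 (limma, where 8.97% of all genes were called higher and 8.62% lower). Among them CXCL11, a chemokine that attracts T cells, differed by 1.82 ± 0.37 on the log2 scale (SE, adjusted p = 0.00782), CD274, which encodes PD-L1, by 1.06 ± 0.25 (adjusted p = 0.0136) and ICAM1, an adhesion molecule, by 0.64 ± 0.13 (adjusted p = 0.00776). CXCL11 and CD274 were picked after their values were seen. GBP5, another of the 7, had normalized counts of 3.10 to 9.46 in replicate 1 and 4.83 to 23.9 in replicate 2. It passed the filter on low values through replicate 2 libraries alone, so its call is not counted as support. The 24 tested type I response genes outside the 39 were split, 3 higher and 4 lower in replicate 2.

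In the line labelled KO-2 TRIM22, an antiviral ubiquitin ligase, was higher than in the controls by 1.11 ± 0.19 (adjusted p = 0.00786). TRIM22 also differed between the control lines, by -1.32 ± 0.22 for control 2 minus control 1 (adjusted p = 0.0252), the opposite direction to the 5 members called there. PARP14, an ADP-ribosyltransferase related to PARP9, was higher in KO-1 than in the controls (0.66 ± 0.12, adjusted p = 0.014) and lower in the line labelled KO-2 than in KO-1 (-1.07 ± 0.13, adjusted p = 0.0046). TRIM22 and PARP14 were picked after their values were seen.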
